A study of Canis lupus familiaris with 2 samples.

Results

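In 6 long stretches of the dog genome, MDCK cells treated with TGF-beta had a lower DNA methylation level than untreated MDCK cells. They are chr20:10200001-10900000, chr19:35400001-36000000, chr13:18100001-18500000, chr4:49800001-50200000, chr22:52400001-52800000 and chr9:16000001-16300000 of the canFam3 build, and each is named below by its chromosome alone (chr20 and so on). The stretches were chosen by the measured difference between the libraries: each is a run of at least 3 neighbouring domains of 100 kb that were all at least 10 percentage points lower with TGF-beta. Such domains were 339 of 23275 in the genome (1.46%). With at least 5 points required on each strand as well, there were 15 such runs, and the 6 blocks are among them. Their members are the fixed windows of 1000 bp with at least 5 CpG sites that had at least 5 calls in both libraries. Of 1497941 such windows in the genome 1321 lie in the blocks, with 233 in chr20, 358 in chr19, 214 in chr13, 156 in chr4, 196 in chr22 and 164 in chr9. The 500 kb on each side of every block, 12 flanks with 3049 windows, are given beside them.

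MDCK is an established epithelial cell line from dog kidney. Whole-genome bisulfite sequencing was done on genomic DNA of an untreated culture, labelled epithelial and kept for 30 days in parallel, and of one exposed to 5 ng/ml TGF-beta for 30 days, labelled mesenchymal. TGF-beta is a growth factor that can turn epithelial cells into mesenchymal ones, and the study compared methylation before and after that transition. Each group has 1 library, so the differences given below lack a replicate check. The labelled phenotypes could not be checked against marker genes, since only DNA was measured. Bisulfite converts unmethylated cytosine and spares methylated cytosine, so a read that covers a CpG cytosine reports it as methylated or unmethylated, which is 1 call. A methylation level is the methylated calls divided by all calls, and every difference is TGF-beta minus control in percentage points.

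In mammalian cells most methylation is at CpG sites, where the cytosines of both strands carry the mark and a maintenance enzyme copies it onto the new strand after replication. Much of the genome of cultured cells is split between highly methylated stretches and long partially methylated domains, in which isolated CpG sites are known to carry the least methylation and to lose it most over many divisions. CpG-dense stretches, the CpG islands, are usually unmethylated or take a level of their own. This is background, and gene, repeat and chromatin annotation was not used here.

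The libraries held 656122583 calls (control) and 1019766599 calls (TGF-beta), and 22984712 CpG sites had at least 5 calls in both, with medians of 22 and 38 calls. Intervals are exact 95% binomial intervals. They cover counting error only, and calls from PCR-amplified reads without molecular identifiers are not independent molecules. The variance between the strands of a window was above the binomial value, 2.99-fold for the control and 5.87-fold for TGF-beta, so true technical error is wider than these intervals. Because the blocks were chosen by the same comparison, their levels and differences are a description, with no test.

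All 6 blocks stood at 69.6% to 83.6% in the control and at 54.4% to 69.9% with TGF-beta. In chr20, the longest block, the control level was 80.0% (interval 79.7% to 80.4%, 52811 calls) and the TGF-beta level 61.8% (61.4% to 62.1%, 63640 calls), a difference of -18.3 points. In chr19 the levels were 83.6% and 69.9%, a difference of -13.7 points. In chr13 they were 74.7% and 60.5%, a difference of -14.2 points. In all 6 blocks the counting intervals of the libraries did not overlap, which follows from the choice of domains at least 10 points lower and is no test. The chr4 block had the lowest level in both libraries, with 69.6% and 54.4% and a difference of -15.2 points. The chr22 block had 75.8% and 62.9%, the smallest difference at -13.0 points. The chr9 block, the shortest, had 72.3% and 55.9%, a difference of -16.4 points. The strands, which come from different molecules of the same library, gave -13.4 to -16.7 points on the plus strand and -10.7 to -18.7 points on the minus strand. When every site counted equally in place of every call, the 6 differences ran from -12.4 to -18.9 points.

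Taken as pairs, the flanks were closer to equal in the libraries. Their differences were 1.37 points around chr20, -4.01 around chr19, -2.85 around chr13, -0.0967 around chr4, -2.95 around chr22 and -4.03 around chr9. With sites weighted equally the value around chr20 was -2.04 points, so its sign depends on the weighting. Block and flanks were of unlike level to begin with. In the control, 5 of the 6 blocks were above their own flanks, by 31.5 points in chr20, 22.8 in chr13, 18.5 in chr9, 15 in chr22 and 12.2 in chr19. With TGF-beta the same 5 blocks were still above their flanks, by 11.8, 11.4, 6.18, 4.96 and 2.51 points. These values set a block against the mean of its flanks, and single stretches beside a block could be as high or higher: the 60 kb left of the chr22 block held 88.9% to 93.3% in the control, by steps of 20 kb. The chr4 block was the exception: it lay near its flanks in the control, at -1.31 points, and at -16.4 points with TGF-beta. Its flanks were themselves unlike, with 40.7% to the left and 77.9% to the right in the control.

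**Figure D1:**
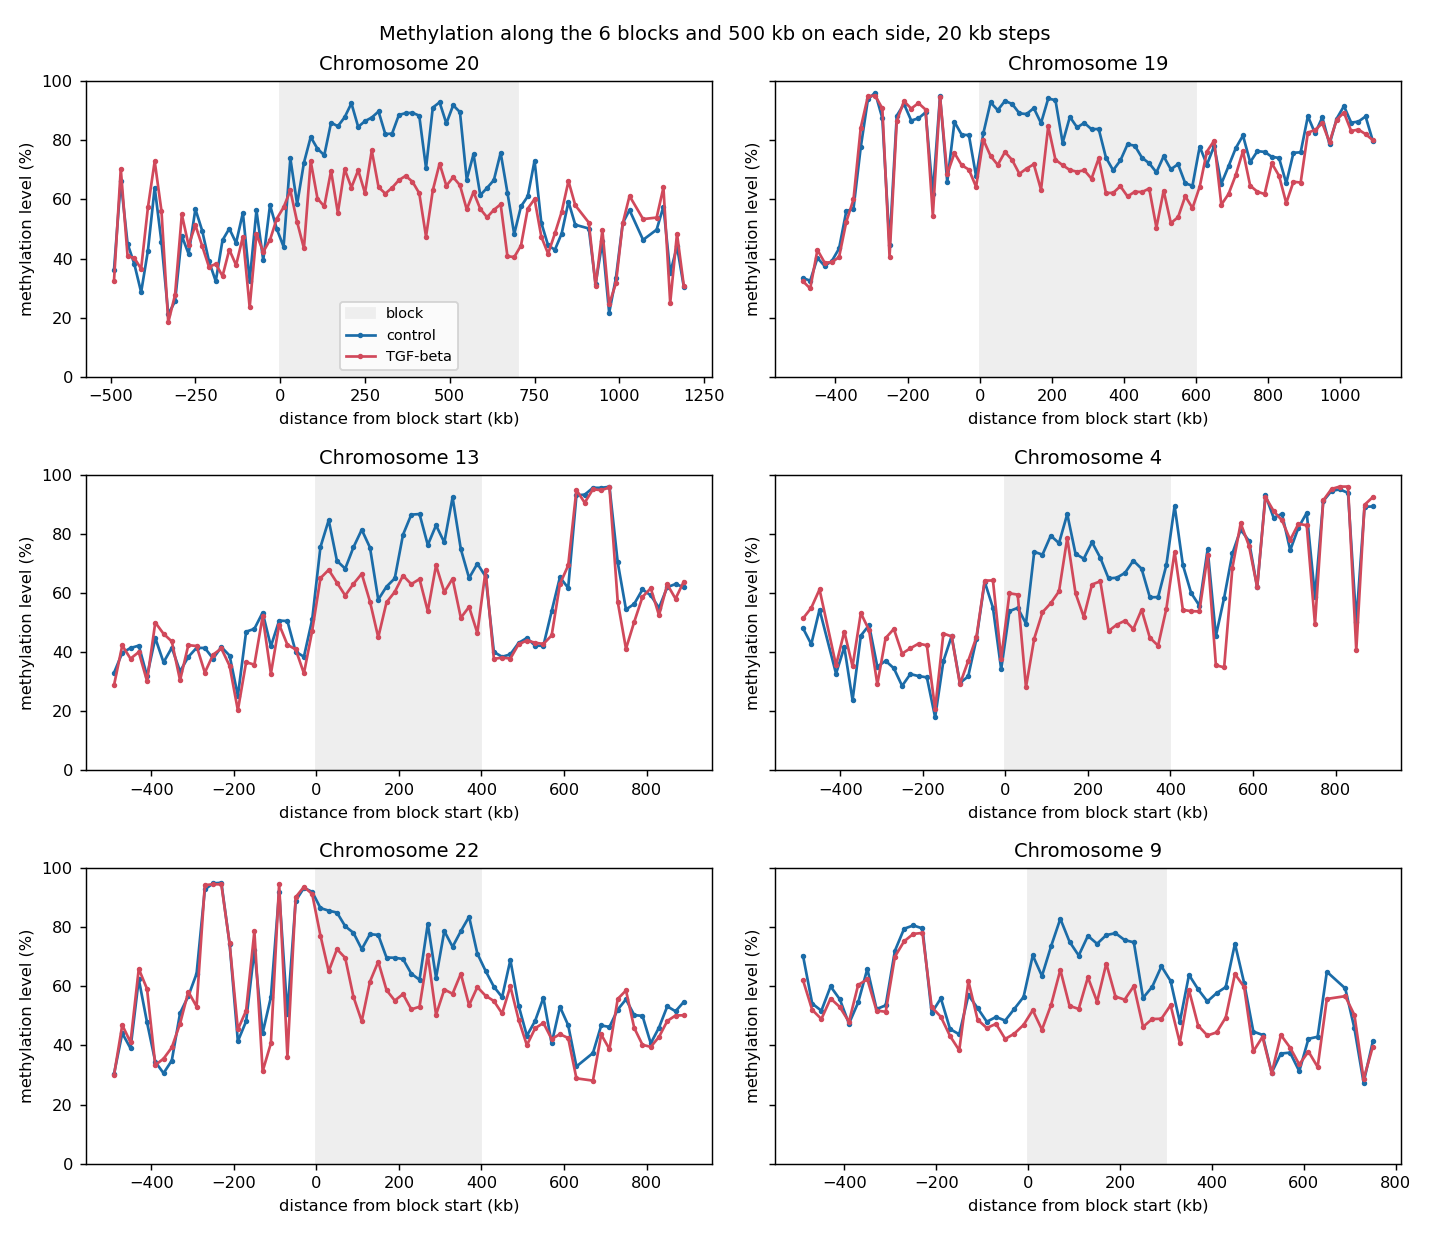
Methylation level in steps of 20 kb (y axis, %) by distance from the start of each block (x axis, kb), for the control (blue) and the TGF-beta library (red), with the block shaded; steps with fewer than 3 windows are left out. The lines part inside the shading, save that TGF-beta is the higher one in the first 20 kb of chr20 and the first 40 kb of chr4, and run close together over most of the flanks, including the flank stretches near 95% beside the blocks in chr13, chr4 and chr22.

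Most of the length of the blocks was lower with TGF-beta. Of the steps of 20 kb with at least 5 windows, all 28 in chr20 were lower with TGF-beta, as were 30 of 30 in chr19, 19 of 19 in chr13, 20 of 20 in chr22 and 15 of 15 in chr9. In chr4 it was 15 of 16, and the exception, 20 kb from the start, had a difference of 4.49 points. Steps with fewer windows are not in these counts, and the first step of a pair of blocks was among them: it went from 44.0% to 57.3% in chr20 (4 windows) and from 53.8% to 59.8% in chr4 (3 windows). The first 20 kb of chr20 and the first 40 kb of chr4 were thus higher with TGF-beta. In chr20 the steps ran from 48.3% to 91.8% in the control and from 40.5% to 76.5% with TGF-beta, and their SD across steps was 11.7 and 8.90 points. The largest single step difference was -29.9 points, in chr22 at 360 kb from the block start. The profile was flatter with TGF-beta in chr20, chr19, chr13 and chr9 by that SD, and not in chr4 (7.66 and 8.53 points) and chr22 (7.49 and 7.96 points).

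A high level in the control did not mark these steps out by itself. Steps at 80% or more in the control numbered 45 inside the blocks and 47 in the flanks. Inside, 45 of 45 were lower with TGF-beta, 40 of them by at least 10 points, with a median difference of -18.3 points and a range from -29.9 to -2.11. In the flanks 26 of 47 were lower, 4 of them by at least 10 points, with a median of -0.354 points. Among steps at 90% or more, 8 of 9 inside were at least 10 points lower, and 0 of 21 in the flanks were, where differences ran from -2.73 to 2.75 points. The same held for single windows when the control level was read on the plus strand and the difference on the minus strand, which share no calls. In windows of that class at 80% or more the median difference was -14.3 points in the blocks (399 windows), -0.761 in the flanks (547 windows) and 0.173 in the genome outside the blocks (403389 windows). In windows from 60% to 80% the medians were -15.5, -2.58 and 0.449 points, and in those from 40% to 60% they were -15.4, -3.35 and 0.420 points. In the few block windows from 20% to 40% (21 windows) the median was -6.28 points, and 61.9% of them were lower. The flanks had -4.39 points and 62.0% in that class. With the strands exchanged the block median was -12.3 points (16 windows) with 93.8% lower, and the flanks had -3.00 points and 58.4%. The value of this small class thus depends on the strand. Since the blocks were chosen for being lower, the contrast with the flanks follows in part from the choice.

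Most windows of the blocks took part. Of the 1321 windows 1223 (92.6%) were lower with TGF-beta by any amount, against 59.1% in the flanks and 46.2% in the genome outside the blocks. Lower by at least 10 points were 939 (71.1%), against 8.39% of all windows of the genome and 598 of 3049 (19.6%) in the flanks. The median window difference was -16.2 points in the blocks and -1.41 in the flanks. Calls of each window were compared by Fisher's exact test, two-sided, with Benjamini-Hochberg adjustment over all 1497941 windows, an adjusted p under 0.05 and a size of at least 20 points required. By that rule 475 block windows were called lower and 3 higher. Over the genome 1.43% of windows were called lower and 2.22% higher. The test compares 2 libraries, and nothing is read from the block count because the same difference chose the blocks. Called windows numbered 109 in chr20, 118 in chr19, 73 in chr13, 64 in chr4, 47 in chr22 and 64 in chr9.

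Windows with a high level became scarce. In chr20 the windows at 80% or more numbered 140 of 233 in the control and 20 with TGF-beta. In chr19 they numbered 237 of 358 and 74, and in chr13 they numbered 107 of 214 and 20. In chr4 they numbered 43 of 156 and 5, in chr22 they numbered 75 of 196 and 20, and in chr9 they numbered 48 of 164 and 6. The order of windows was partly kept: across windows of a block, Pearson's r between the libraries was 0.67 to 0.81, and 0.85 to 0.96 across the windows of the flanks. These r values are across windows of the same 2 libraries and are a description.

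**Figure D2:**
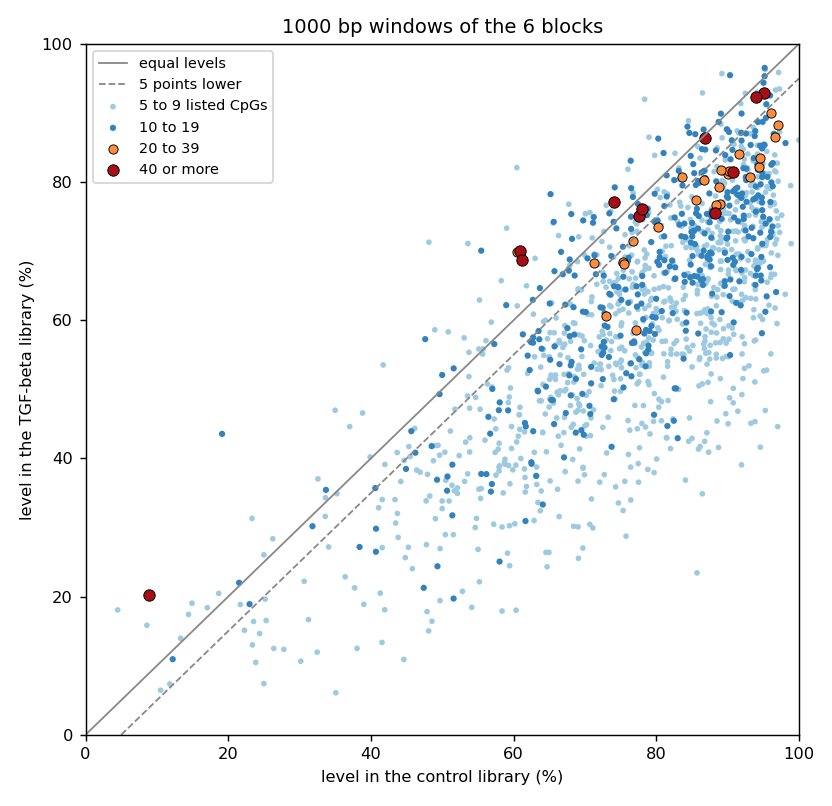
Methylation level of the 1321 block windows of 1000 bp in the control (x axis, %) and the TGF-beta library (y axis, %), coloured by the number of listed CpG sites. Most points lie under the dashed line that marks 5 points lower, and 9 of the 11 windows with 40 or more listed sites lie above it.

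The largest fall in each block was sought among windows with at least 10 sites, 100 calls in each library and at least 10 points lower on each strand. These are given as examples and were selected on the difference they show. In chr20 the window chr20:10364001-10365000 held 83.0% in the control (365 calls) and 42.9% with TGF-beta (729 calls). In chr19 the window chr19:35545001-35546000 held 94.8% and 58.1%. In chr13 the window chr13:18373001-18374000 held 82.8% and 50.1%. In the first of them the strands were unequal, with -17.1 points (plus) and -40 points (minus). These 3 windows were highly methylated in the control and intermediate, not empty, with TGF-beta. In chr4 the window chr4:50100001-50101000 held 61.7% and 30.9%. In chr22 the window chr22:52761001-52762000 held 91.2% and 62.5%, and in chr9 the window chr9:16154001-16155000 held 82.6% and 50.1%. All of these falls were smaller as means of site levels than by summed calls. In chr20 it was -34.9 against -40.1 points, in chr19 -29.2 against -36.7 and in chr13 -25.9 against -32.6. In chr4 it was -29.7 against -30.7, in chr22 -25.7 against -28.7 and in chr9 -28.9 against -32.5. Only chr13 had a window that rose by at least 20 points under the same depth limits: chr13:18406001-18407000 held 19.1% (16.1% to 22.4%, 632 calls) in the control and 43.6% (40.8% to 46.3%, 1265 calls) with TGF-beta. Its strands gave 22.2 (plus) and 30.0 points (minus).

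A window was counted as spared where it was not at least 5 points lower with TGF-beta. Of the 1321 block windows 206 (15.6%) were spared, against 80.8% of all windows of the genome and 2007 of 3049 (65.8%) in the flanks. The share ran from 11.6% in chr9 to 18.9% in chr22, with 12.9% in chr20, 17.3% in chr19, 15.4% in chr13 and 16.0% in chr4. Of the spared windows 100 were high in both libraries (70% or more), 9 were low in both (under 20%) and 97 were in between or crossed a limit. Of 928 block windows at 70% or more in the control 109 (11.7%) were spared, while in the flanks 847 of 1140 (74.3%) were. The blocks were chosen for being lower, so their small spared shares follow in part from that choice.

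Runs of spared windows were counted from one kept window to the next, passing over positions without a kept window. The longest run was 5 windows in chr20, 12 in chr19, 5 in chr13, 4 in chr4, 3 in chr22 and 2 in chr9. The runs in chr20, chr19 and chr4 lay at or near the left border. The run in chr19, chr19:35400001-35414000, is the first 14 kb of the block and held 80.0% in the control and 79.7% with TGF-beta. The run in chr20, chr20:10204001-10222000, held 51.7% and 61.6%, and that in chr4, chr4:49808001-49829000, held 55.5% and 60.3%. Within 50 kb of a border 57 of 255 windows (22.4%) were spared, and 149 of 1066 (14.0%) further in. That split was not shared by all blocks: the outer share was higher in chr20 (25.7% and 10.6%), chr19 (36.5% and 14.1%) and chr4 (33.3% and 12.4%), within 1 point in chr13 and chr22, and lower in chr9 (8.16% and 13%).

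CpG-dense windows were the class most often spared, though few. Only 11 block windows had 40 or more listed CpG sites, and 9 of them were spared. Their summed level was 73.1% in the control (8001 calls) and 73.2% with TGF-beta (15786 calls), a difference of 0.0314 points. Dense windows were also mostly spared elsewhere, at 81.3% in the flanks and 93.7% in the genome outside the blocks. Below 40 listed sites the spared share in the blocks had no steady order. It was 12.5% at 20 to 39 listed sites, 20.8% at 10 to 19 and 12.5% at 5 to 9. The block difference was larger with fewer sites: -7.78 points in 24 windows of 20 to 39 listed sites, -13.5 in 399 windows of 10 to 19 and -18.4 in 887 windows of 5 to 9. In the flanks the same classes had differences of -1.48, -1.59 and -2.87 points, and in the genome outside the blocks -0.235, -0.00538 and 0.224.

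The densest windows show what sparing looked like. In chr19 the window chr19:35585001-35586000, with 82 listed sites, held 95.2% (93.8% to 96.3%) and 92.9% (91.9% to 93.8%), within a step of 20 kb that held 94.1% and 84.7%. In chr9 the window chr9:16067001-16068000, with 69 listed sites, held 78.1% and 76.2%. In chr22 the window chr22:52605001-52606000, with 71 listed sites, held 74.1% and 77.1%, and in chr13 the window chr13:18183001-18184000, with 92 listed sites, held 77.6% and 75.1%. In chr13 64 of the listed sites were kept, and the strands were unlike, with 5.48 (plus) and -13.1 points (minus). In chr22 the strands gave 4.75 and -2.32 points, in chr9 0.310 and -5.60, and in chr19 -0.0763 and -4.41. These 4 windows were all methylated in both libraries, unlike the usual unmethylated CpG island. In chr4 the window chr4:49836001-49837000, with 61 listed sites, held 61.2% and 68.8%. The densest window of all, chr19:35630001-35631000 with 142 listed sites, was the exception in level: it held 8.96% (7.18% to 11%) in the control and 20.3% (18.5% to 22.1%) with TGF-beta (the plus strand gave 11 points more and the minus strand 13.3), inside a block that went the other way. The chr20 block had no window of that density, and its densest, chr20:10386001-10387000 with 21 listed sites, held 91.5% and 84.0%, a difference of -7.53 points.

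The difference also followed the spacing of single sites. Each CpG site was classed by the distance to its nearest listed CpG site, over all block sites with at least 5 calls in both. Sites with a neighbour within 20 bp held 84.5% in the control and 74.7% with TGF-beta, a difference of -9.85 points (5549 sites). Sites whose nearest neighbour was 21 to 50 bp away had a difference of -18.8 points (3426 sites). Between 50 and 100 bp it was -22.8 points, between 100 and 200 bp -22.0 points, and beyond 200 bp the levels were 67.1% and 43.8%, a difference of -23.3 points (1403 sites). The difference was thus more than 2 times as large at isolated sites, and it was near its full size once no CpG lay within 50 bp. In the flanks the 5 classes had -3.55, -3.48, -4.34, -4.31 and -3.11 points, with no such order by summed calls. As means of site levels they had -0.902, -2.86, -3.23, -3.09 and -3.02 points, smallest at the closest sites. On the autosomes outside the blocks all 5 were between -0.245 and 0.219 points.

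Isolated sites were also lower in the control, so the comparison was repeated at sites that started alike. Sites at 80% or more on the plus strand of the control were read on the minus strand, where the 5 classes held 87.8% to 91.9% in the control. With TGF-beta, sites with a neighbour within 20 bp held 82.5%, a difference of -9.37 points (1752 sites). Those with a neighbour 21 to 50 bp away held 71.9%, a difference of -18.2 points. Those beyond 200 bp held 61.3%, a difference of -26.5 points (163 sites). With the strands exchanged the values for the closest and the most isolated class were -9.64 and -27.4 points. In the flanks the classes ran from -1.60 to -2.98 points, and on the autosomes outside the blocks from -0.108 to -0.931. Block by block all sites were compared, with no control level required, so the distance classes of a block started unlike. In chr4 they held 74.5%, 59.1% and 53.7% in the control, and in chr20 82.7%, 74.4% and 70.4%. By that comparison the order of the differences held in every block between sites with a neighbour within 50 bp and all others. In chr20 those differences were -15.3 points, -26.1 (51 to 200 bp) and -26.3 (beyond 200 bp). In chr19 they were -11.2, -22.3 and -21.4, in chr13 -11.7, -21.2 and -23.9, and in chr4 -14.0, -21.3 and -22.9. In chr22 they were -12.1, -18.9 and -18.1, and in chr9 -14.9, -23.7 and -23.4. Depth moved with this distance: calls in the blocks went from 140845 to 211573 at sites with a neighbour within 20 bp and from 44986 to 43241 at sites beyond 200 bp. It did so in the flanks as well, from 387923 to 674725 and from 88142 to 80619 calls. The part of depth in the order by distance was not tested.

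**Figure D3:**
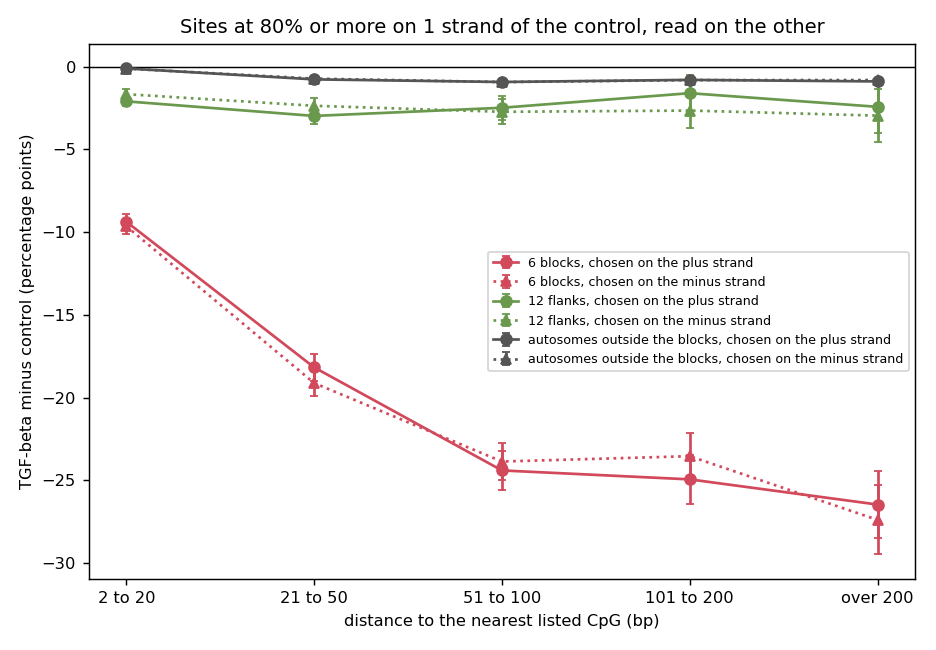
Difference in methylation level (y axis, TGF-beta minus control, percentage points) by distance to the nearest listed CpG (x axis, bp), at sites of 80% or more on 1 strand of the control and read on the other strand; bars are 95% counting intervals by the normal approximation. In the 6 blocks the difference runs from -9.37 points within 20 bp to -26.5 beyond 200 bp, while the flanks stay between -1.60 and -2.98 points.

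The levels of single sites show how a block level was made up. Over the 12599 block sites that had 10 or more calls in both, the median site level was 87.1% in the control and 65.8% with TGF-beta, and 80.6% of sites were lower. Sites at 80% or more made up 62.1% of sites in the control and 33.7% with TGF-beta. Sites between 20% and 80% made up 31.3% and 51.7%, and sites under 20% made up 6.58% and 14.6%. The gain was thus mostly of intermediate sites, and the SD of site levels beyond counting error went from 25.9 to 28.9 points. In the flanks (30937 sites) the shares were 42.0% and 39.4% at 80% or more, 32.9% and 33.4% in between, and 25.1% and 27.2% under 20%. Fully methylated sites, those with only methylated calls, were fewer in the blocks with TGF-beta. Deeper sites show 100% less often, so the calls of each site were drawn to the smaller count of the libraries, and the shares were then 14.8% and 5.03% in the blocks and 9.77% and 10.2% in the flanks. With all calls they were 12.4% and 2.74% in the blocks and 8.42% and 6.35% in the flanks, where the direction thus depends on depth.

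**Figure D4:**
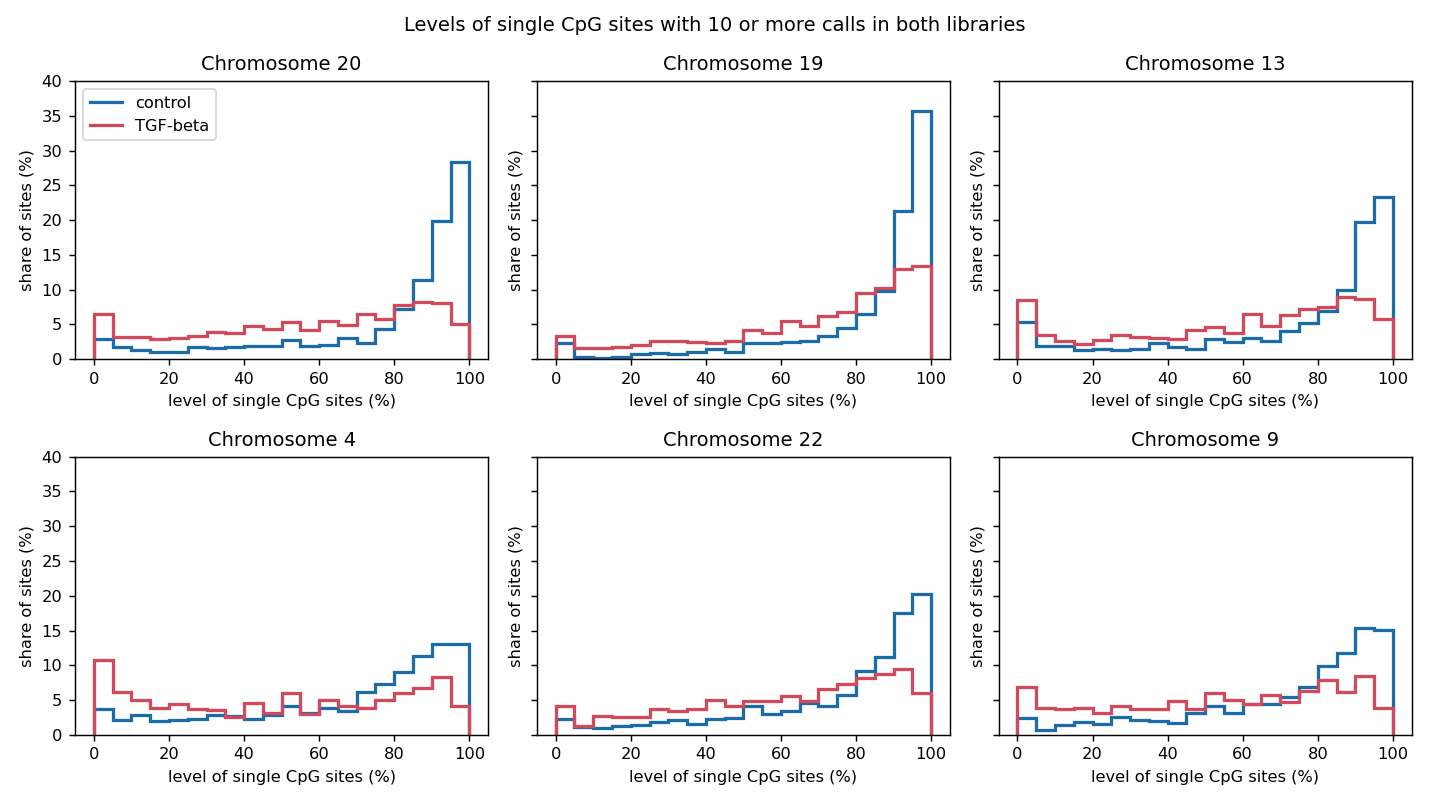
Share of CpG sites (y axis, %) by site level in steps of 5 points (x axis, %) for the control (blue) and the TGF-beta library (red), at sites with 10 or more calls in both. In each block the peak near 100% in the control is lower with TGF-beta, and the sites are spread over the whole range, with a peak at the unmethylated end that is highest in chr4.

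The blocks differed in where their sites went. In chr20 the intermediate share went from 26.3% to 55.3%, in chr19 from 23.6% to 45.7%, in chr13 from 29.7% to 52.6% and in chr22 from 36.4% to 56.8%. In chr4 it went only from 43.0% to 49.0%, and there the share under 20% went from 10.6% to 25.8%. The chr9 block lay between, with 41.4% and 55.3% for the intermediate share and 6.45% and 18.3% for the share under 20%. The chr4 block was thus the block whose sites moved most to the unmethylated end. It was also the block with the lowest level in both libraries.

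Followed site by site, few highly methylated sites emptied. Of the 7825 block sites at 80% or more in the control 51.3% stayed at 80% or more with TGF-beta, 47.4% were between 20% and 80%, and 1.34% were under 20%. In the flanks 83.5% of 12979 such sites stayed, 16.4% were in between and 0.116% were under 20%, which includes sites that were high in the control by counting error. The share that stayed ran from 41.8% in chr20 to 59.5% in chr19. Sites that were intermediate in the control were the main source of newly low ones: 25.7% of 3945 were under 20% with TGF-beta, against 15.9% in the flanks. That share was 36.4% in chr4, 29.9% in chr20, 28.6% in chr9, 24.3% in chr13, 20.1% in chr19 and 16.7% in chr22. Sites under 20% in the control stayed there at like rates, 86.7% of 829 in the blocks and 87.3% in the flanks.

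The TGF-beta library's blocks were also set beside domains of 100 kb of the control library outside the blocks with a like level, within 2 points of the mean site level, and a like number of sites, within 25%. Such domains had fewer intermediate sites and more at both ends. For chr20 the intermediate share was 55.3% in the block and 44.0% in 147 such control domains, and for chr19 it was 45.7% and 25.5% (473 domains). For chr13 it was 52.6% and 37.9%, for chr22 56.8% and 37.1%, for chr9 55.3% and 39%, and for chr4, the closest pair, 49.0% and 43.1%. The control library's own blocks were above like control domains in the same sense, with 26.3% and 25.4% in chr20, 23.6% and 16.3% in chr19, 29.7% and 21.3% in chr13, 43.0% and 36.5% in chr4, 36.4% and 22.4% in chr22, and 41.4% and 21.2% in chr9. An excess of intermediate sites was thus already there in the control for 5 blocks. It was wider with TGF-beta in chr20, chr19, chr13 and chr22, near the same in chr4 and narrower in chr9.

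The differences did not end at the nominal borders. Across the nominal borders the domain of 100 kb just inside had differences from -19.7 to -10.6 points and the domain just outside had differences from -9.23 to 4.51 points. The nearest values on either side of the limit of 10 points were those inside the left border in chr20, at -10.6, and outside the right border in chr9, at -9.23. In 10 of 12 cases the domain outside was itself lower with TGF-beta. As means of site levels the outside domains ran from -10.3 to 0.556 points: those right of chr9 and chr20 (-10.1) then passed the limit, and the signs left of chr4 (-0.184), right of chr13 (-2.74) and left of chr22 (0.556) turned. The control level was higher inside than outside at 10 of 12 borders, and the TGF-beta level at 9 of 12.

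A border was then placed, within 150 kb of each nominal one, where the difference changed most between the 50 kb inside and the 50 kb outside. The change at the placed borders ran from -9.16 to -28.9 points, and 8 of 12 lay within 50 kb of the nominal border. Placement was unstable: with arms of 20, 50 and 100 kb only 2 of 12 borders were placed within 20 kb of each other, 7 were placed over 50 kb apart, and the right border in chr9 was 238 kb apart and met the search limit. With sites weighted equally as a further setting, 1 border, in chr4, kept its place within 20 kb. The 2 borders that were stable over the arms were both on the left. In chr4 it lay 44 to 46 kb inward of the nominal border, with 73.5% in the control and 49.0% with TGF-beta over the 50 kb inside, and 50.7% and 55.1% outside. It was the largest change with arms of 50 kb and the only block border where the control stepped up by over 20 points while the TGF-beta library stepped slightly down. With sites weighted equally the 50 kb outside that border held 59.2% and 56.6%. The step from outside to inside was then 7.96 points in the control and -12.6 with TGF-beta, so the sizes depend on the weighting. In chr13 the left border lay within 13 kb of the nominal one, with 68.9% and 56.5% inside and 42.3% and 39.1% outside, so both libraries stepped up there. At the placed borders the control was higher inside at 10 of 12, and the TGF-beta library at 5 of 12. The search took the place where the TGF-beta step lay furthest below the control step. These counts and the size of the change thus follow in part from the search.

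The TGF-beta library was relatively shallower in the blocks than over the autosomes. The ratio of its calls to those of the control, on the log2 scale and relative to all autosomal windows, was -0.193 to -0.469 in the blocks and -0.0536 to -0.360 over the flank pairs. In windows of 5 to 9 listed CpG sites, set beside autosomal windows of the same class, it was -0.144 to 0.126 in the blocks, on both sides of 0. Whether depth had a part in the level differences was not tested. With the calls of every site drawn to the smaller count of the libraries the mean of the 6 block differences was -16.1 points, and -15.1 points with all calls.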

How the data were processed

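Whole-genome bisulfite sequencing of MDCK DNA gave 1 control and 1 TGF-beta library, grouped by the labelled agent. The deposited values are counts: the authors' files give, for each CpG cytosine and strand, a count of methylated and of unmethylated calls. Bismark, Bowtie 0.12.8 and canFam3 are named in the submitters' processing notes, and SOAPaligner2 per the labels' protocols, so the sources differ on the aligner. The handling of duplicates and read filters is not given in the sources used here; duplicates or overlapping mates that were kept would make counting intervals too narrow. The column of methylated counts was identified from mitochondrial DNA, which holds almost only the other kind of call. Left out was 1 line per file without a chromosome name (12 and 6 calls). Cytosines in runs of more than 1 adjacent position and odd length were also left out (0.00656% of calls). A cytosine listed without its partner on the other strand was kept as a site, and 90.58% of sites had both strands listed.

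Strands of a CpG were summed into sites, sites of 5 or more calls in both into windows of 1000 bp with at least 5 sites, and levels are methylated over all calls. The window test was Fisher's exact test (two-sided) with Benjamini-Hochberg adjustment over the genome. It compares 2 libraries and not the conditions. An alternative score test scaled each library's variance by that between its strands, from windows with at least 30 calls per strand. The window test and the border search were run on simulated binomial calls, the border search with a single sharp step. Those simulations lack the variance above binomial seen between strands here. They check the code, and do not show how well either method does on these data. Intervals are Clopper-Pearson at 95%, for counting error only.

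The members, limits and windows to name were chosen with earlier results of these data known. For each block the named windows are the largest fall (at least 10 sites, 100 calls in each library and 10 points on each strand), the largest rise of at least 20 points, and, among windows high in both, low in both or with the most listed sites, those with the most sites. The windows low in both are not described. The comparisons by neighbour distance, with like domains, by distance of spared windows from a border, of high 20 kb steps and of domains across borders were added after the data were examined. Alternatives varied the calls and sites required, strand, depth, weighting, window position, limits and test. No canFam3 genome or annotation was used here, so no sequences or genes are given. The software was numpy 2.4.6, numba 0.67.0, scipy 1.17.1, matplotlib 3.10.9 and pyarrow 21.0.0 under Python 3.11.15.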

Additional observations from a re-analysis of the deposited data

How the results depend on the processing

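No paired analysis was possible because each group has 1 library, and for the same reason no replicate could be left out. None of the results varied in this section turned direction. Values beside them did with sites weighted equally: the flank pair around chr20 (1.37 points, then -2.04) and around chr4 (-0.0967, then 0.0750), and the domains outside the left border of chr4 (4.51, then -0.184), the right border of chr13 (0.533, then -2.74) and the left border of chr22 (-6.85, then 0.556). So did differences over the 50 kb outside placed borders, among them the left one in chr4 (4.42, then -2.68) and the left one in chr20 (5.91, then -9.36). Borders were placed anew under that weighting, so the 50 kb stretches compared were not the same. The chr20 border lay 27 kb inward of the nominal one by calls and 53 kb by sites. The chr4 border lay 44 kb and 42 kb inward. The flank share of fully methylated sites was lower with TGF-beta over all calls (8.42% and 6.35%) and not with calls drawn (9.77% and 10.2%). The mean of the 6 block differences was -15.1 points. It was -14.8 on the plus strand, -13.4 on the minus strand and -13.8 at sites read on both strands in both libraries. Without the deepest sites it was -14.8, and with calls drawn to the smaller count -16.1. It was -15.8 with 3 sites per window, -11.9 with 10 sites per window and -14.8 with windows moved by 500 bp. Over all sites with no minimum per window it was -15.9. The mean difference of the flank pairs, -2.09 points, was -2.88 on the minus strand and -2.26 at sites read on both strands. It was -1.88 with 3 sites, -2.42 with 10 sites and -1.95 as the mean of site levels. The mean of block minus flank, -13.0 points, was -12.7 on the plus strand, -10.5 on the minus strand and -11.6 at sites read on both. It was -14.0 with calls drawn, -13.9 with 3 sites, -9.53 with 10 sites and -14.2 over all sites. The windows of 10 sites leave out the sparse windows, where the difference was largest.

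The spared share of 15.6% was 18.2% on the plus strand, 21.3% on the minus strand, 18.0% at sites read on both, 12.8% with calls drawn, 20.4% with 10 sites, 12.6% by the mean of site levels, 28.9% with a limit of 10 points and 7.42% with a limit of 0. The 475 block windows called lower became 237 on the plus strand, 202 on the minus strand, 298 at sites read on both, 814 with 3 sites, 76 with 10 sites, 180 by the score test, 876 at 10 points and 163 at 30 points. The 21443 called over the genome became 16001 on the plus strand, 16269 on the minus strand and 15434 at sites read on both. They became 37275 with 3 sites, 4236 with 10 sites, 3869 by the score test, 98501 at 10 points and 3635 at 30 points. With calls drawn, 464 were called in the blocks and 10147 over the genome. With the mean of site levels also past 20 points these were 376 and 6818. The settings on strand and sites also changed which windows were tested, and those totals are not given.

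The mean change at the placed borders, -15.7 points with arms of 50 kb, was -21.4 with 20 kb, -14.7 with 100 kb and -12.8 by the mean of site levels. The gain of intermediate sites, 20.4 points, was 22.6 at sites of 20 calls, and the share of high sites that became intermediate, 47.4%, was 49.6%. The mean log2 depth ratio of the blocks, -0.332, was -0.0514 in windows of 5 to 9 listed sites. The 339 domains lower by 10 points became 139 by the mean of site levels. The difference beyond 200 bp minus that within 20 bp, -13.4 points, was -17.1 and -17.7 at high sites chosen on the plus and on the minus strand. Alternatives over all sites, at high sites, by the mean of site levels for neighbour distance, and with fewer or drawn calls for the fate of sites were chosen after seeing the data. Depth limits single sites most, since 10 calls resolve a level only in steps of 10 points.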
